A study of Mus musculus with 3 samples.

Results

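Genes of cell adhesion, cell junctions and cell polarity were followed in mouse embryos at the four-cell stage. The set comprised every gene on the array whose name belongs to the cadherins, catenins, claudins and other tight junction proteins, desmosomal proteins, connexins, integrins or the Par, Crumbs and Scribble polarity groups, with the cortical linker ezrin. This choice by name gave 125 genes on 230 probes, out of 27670 genes on 41174 probes. A few names enter by their spelling alone. Itgb4bp is the former name of Eif6, a factor of ribosome assembly, and Itgb1bp3 is now Nmrk2, a nicotinamide riboside kinase.

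Before fertilisation, oocytes of the HP group had been exposed to a high hydrostatic pressure of 20 MPa, at 37 °C and for 60 min, and control oocytes had been kept at the same temperature with no pressure applied. Both kinds of oocyte were fertilised by sperm injection per the sample labels, while the title of the series names in vitro fertilisation, and no strain or age of the mice is given in the sources used here. The 3 HP pools held 44, 30 and 37 embryos and the 3 control pools 36, 33 and 24 embryos (replicates 1, 2 and 3). HP RNA carried the dye Cy5 and control RNA Cy3 on each of 3 two-colour arrays, so an effect of dye and an effect of pressure cannot be told apart.

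In the mouse embryo, blastomeres are loosely apposed until compaction, when E-cadherin and the catenins that tie it to actin flatten the cells against each other. Polarity proteins then mark an outer apical domain. Tight junctions and desmosomes are built as the outer cells become the trophectoderm, the epithelium that forms the wall of the blastocyst. Integrins bind the cell to extracellular matrix and take part in later attachment to the uterus.

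Detection differed between probes of the same gene, so the probes behind the main results are shown first. Each probe has 60 bases in the sense of the transcript, and its first 30 bases are given 5′ to 3′ in lower case with their mm7 position on the array design. Probes of the same gene stand together.
Cdh1, detected in all pools, chr8:105268557-105268586, plus strand: acattctaacgggaaaaaggagacaagacc
Gja4, detected in all pools, chr4:126756281-126756310, minus strand: acccagcgccaagttgactttcgagcctcc
Ctnnb1, detected in all pools, chr9:120658490-120658519, plus strand: ttctaagaaccgagtaatggtgtagaacac
Ctnnb1, detected on 1 HP and 1 control array, chr9:120657994-120658023, plus strand: gaaggagatgttcatgtgtggaagtttctc
Ctnnb1, not detected, chr9:120654491-120654520, plus strand: aagggacatggagtgtaatgtactgttgtg
Ctnnal1, detected in all pools, chr4:56852421-56852450, minus strand: ctgtaaaagaccatcaaatatgtggcaaca
Ctnnal1, not detected, chr4:56855228-56855257, minus strand: ttaaagcttacttcaagtgtacagtcattt
Ctnnal1, not detected, chr4:56870974-56871003, minus strand: ccgacctgttaaaattccatgctgatcatg
Tjp1, detected in all pools, chr7:61154814-61154843, minus strand: tttcgctgtgtattactaagtttttatgag
Tjp1, not detected, chr7:61171265-61171294, minus strand: agccaaatctagcctatgaaccccaacttc
Pard3, detected in the HP pools and in no control pool, chr8:126041072-126041101, plus strand: cataccagactcaaactgtcttgagcagca
Itgb4, detected in all pools, chr11:116117278-116117307, plus strand: gtccaggaacCATAAAGTGGGTAGAGGTGA
Itgb4, detected in all pools, chr11:116117288-116117317, plus strand: CATAAAGTGGGTAGAGGTGAtacaaggtct
The capitals mark the 20 bases that both pieces of Itgb4 share, and the whole probes share 50 bases, so they are not independent measurements of that gene.

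A gene was called detected in a group when any of its probes was well above background, by the call of the scanner software, in all 3 pools. By that rule 22 of the 125 genes were detected in HP embryos and 23 in control embryos, or 17.6% and 18.4%. Over all genes on the array the shares were 18% in HP and 18.3% in control, so the set as a whole was detected about as often as other genes. Of the 125 genes 20 were detected in both groups and 100 in neither, and 77 were above background on no array in either channel. Dsc2 and Llgl1 were among 3 genes detected in the control pools alone, and Ctnnbip1 and Pard3 in the HP pools alone. Ctnnbip1 was still above background in 2 of 3 control pools.

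**Figure D1:**
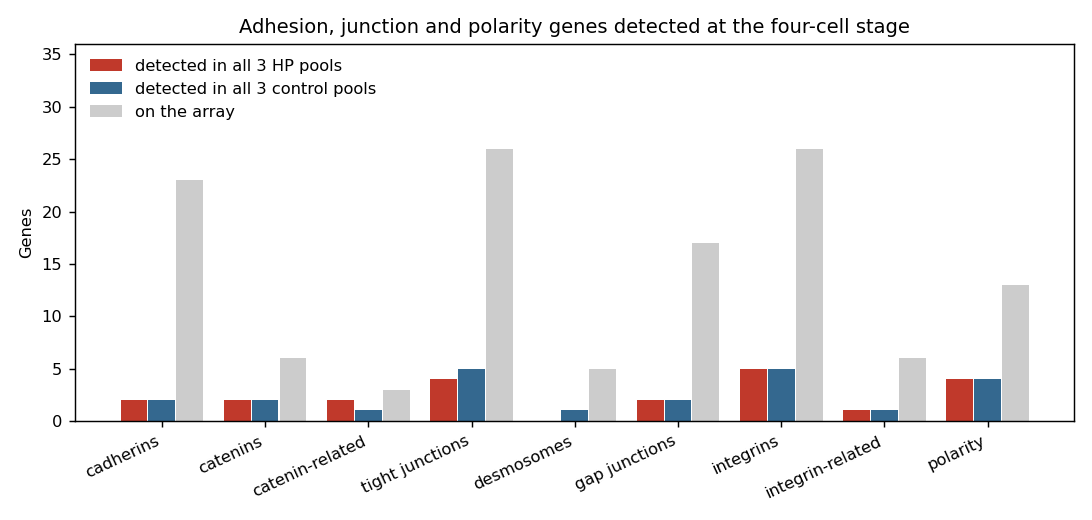
Number of genes of each role detected in all 3 HP pools (red), detected in all 3 control pools (blue) and present on the array (grey). In each role most genes were not detected, apart from the catenin-related genes in HP (2 of 3, against 1 of 3 in control). Desmosomal genes numbered 0 in HP and 1 in control.

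By role, 2 of 23 cadherins were detected in each group: Cdh1, which encodes E-cadherin, and Cdh24, a cadherin that binds catenins. N-cadherin (Cdh2), P-cadherin (Cdh3) and VE-cadherin (Cdh5) were above background on no array. Of 6 catenins, Ctnna1 and Ctnnb1 were detected in both groups, while Ctnnd1, which encodes the p120 catenin, was not. Tight junction genes gave 4 detected in HP and 5 in control out of 26. F11r, which encodes the junctional adhesion molecule JAM-A, Tjp1, which encodes the scaffold ZO-1, Cldn3 and Cldn22 were detected in both, and Tjp3 in neither. None of the 5 desmosomal genes was detected in HP, and Dsc2, a desmosomal cadherin, was the 1 detected in control. That call rested on 1 of 3 Dsc2 probes. In the control pool of replicate 1 its signal was 1.12 times local background, below the median of 1.88 times for negative control spots in that channel. Plakoglobin (Jup) was above background on 1 HP array, and desmoplakin (Dsp) on 1 control array.

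Of 17 connexin genes, Gja4 (connexin 37) and Gja1 (connexin 43) were detected in both groups. Of 13 polarity genes 4 were detected in each group, with Prkcz, an atypical protein kinase C, Scrib, a basolateral scaffold, and Crb3, an apical membrane protein, in both. Prkci, the other atypical protein kinase C, was above background on 1 HP array, and the adaptor gene Pard6b on none. Of 26 integrin genes 5 were detected in both groups, namely Itga6, Itgb2, Itgb4, Itgb5 and Itgb7. Itgb1, which encodes the beta chain common to many integrins, was above background on 1 HP array and no control array. These calls say what exceeded background with these probes, and a gene not called detected may still be transcribed.

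A gene entered the test if 1 channel showed a probe well above background on 2 or 3 of the arrays. This held for 32 of the 125 genes, or 25.6%, against 26.2% of all genes. Of the 93 genes not tested, 77 were above background on no array and 16 on a single array of a channel, among them Dsp, Jup, Itgb1, Itgav and Prkci. What follows covers the 32 genes and not the set in full. Levels are normalized log2 intensities of 1 probe per gene, and ratios are HP over control on the log2 scale, as mean ± standard error over the 3 arrays. An offset of 50 intensity units was added before logs were taken, which compresses the ratio of dim probes. Of the 32 tested genes 14 stayed under a level of 7 in all 6 pools (43.8%, against 29.1% of all tested genes).

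No gene of the set passed the test between HP and control embryos. Among the 32 genes 0 passed an adjusted p of 0.05 in limma, as did 0 of all 7254 genes tested, or 0%, and the lowest adjusted p of the set was 0.264. Before adjustment 2 genes had a p under 0.05 with a ratio above 0, Ctnnal1 and Gja4, and 0 genes with a ratio below 0. Over all genes 7.25% were above 0 at that p and 11.2% below. The count depended on single replicates. Without replicate 1 it was 1 above (Ctnnb1) and 2 below (Itgb5 among them), against 10.8% and 14% of all genes. Without replicate 2 it was 0 and 0, against 3.78% and 5.9% of all genes. Without replicate 3 it was 2 above (Ctnnbip1 and Gja4) and 1 below (Cdh1), against 4.22% and 6.15% of all genes. None of the 32 was 2-fold apart on every array (0.372% of all genes were). In pooled embryos, fewer cells with a transcript and less transcript per cell cannot be told apart.

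The ratio lay above 0 for 19 of the 32 genes and below 0 for 13 (48.3% and 51.7% of all genes), with a median of 0.07, beside a median of −0.01 over all tested genes. With median centring of the arrays in place of loess, the median of all genes moved to −0.39 and that of the set to −0.24, and 0 genes of the set were above and 10 below 0 at an unadjusted p under 0.05. By that scaling 0.648% of all genes were above and 35.1% below at that p, so the share of the set was near that of all genes. All 3 arrays were above 0 for 12 genes (37.5%, against 23.2% of all genes) and below 0 for 4 (12.5%, against 25% of all genes). Of the 14 dim genes of the set 8 were above 0 on every array and 2 below, and among all dim genes 29.6% were above 0 on every array and 18.3% below. The part of signal level in these counts was not tested.

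The HP pools lay above the control pools without overlap for 6 genes (13% of all genes did so) and below them for 1 gene (13.3% of all genes). The 6 genes were Ctnnal1, Tjp1, Cdh24, Cldn12, Cldn22 and Pard3, and the 1 gene was Llgl1. By the probes tested, Cldn12 and Pard3 were well above background in no control pool, and Llgl1 in no HP pool. They entered the test through the group where they were higher, so the rule for testing favours their lack of overlap.

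**Figure D2:**
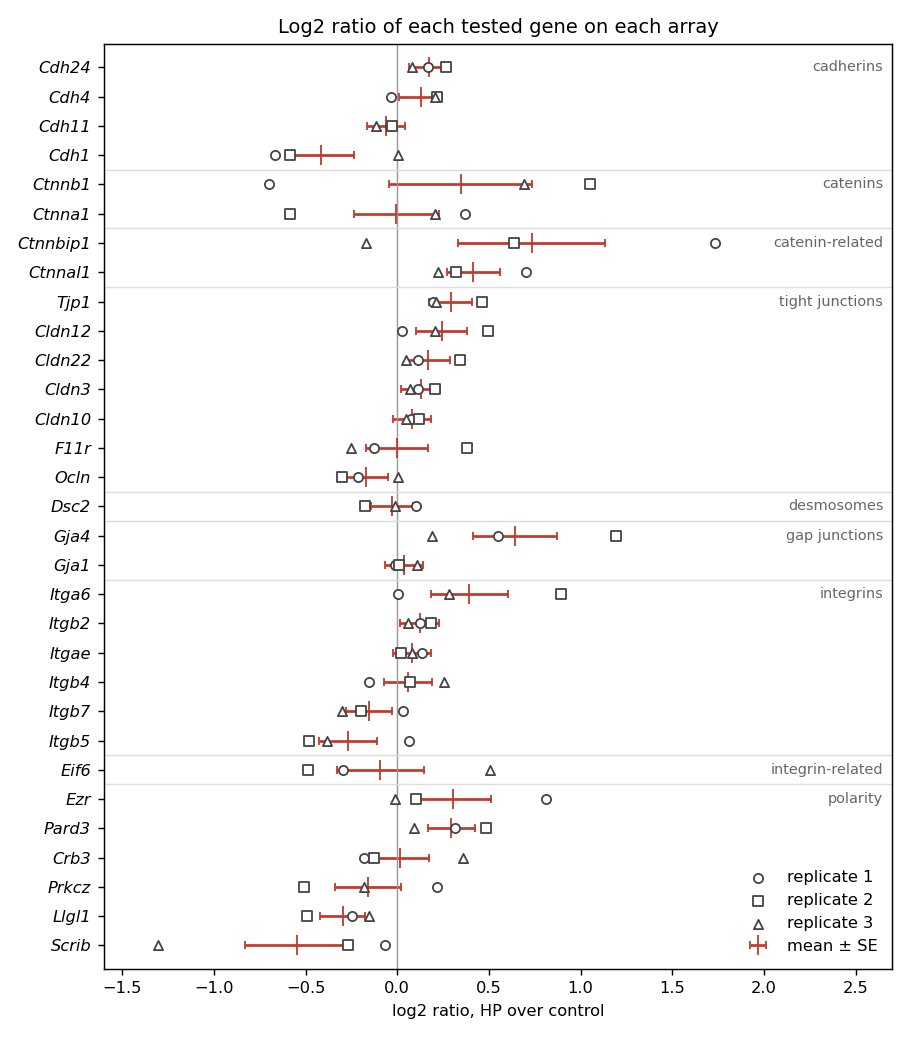
Log2 ratio of HP over control for 31 of the 32 tested genes, grouped by role, with the value of each array (symbols) and the mean with its standard error (red). The means shown run from −0.54 for Scrib to 0.73 for Ctnnbip1, and for 16 genes the 3 arrays fall on both sides of 0.

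The HP pools of replicates 2 and 3 resembled each other more than any other pair. Over the 32 genes the SD of their difference in level was 0.208, against 0.436 and 0.338 for the other pairs of HP pools and 0.396, 0.551 and 0.503 for the pairs of control pools. With these replicates averaged and counted as 1, the set had 1 gene above 0 at an unadjusted p under 0.05, Gja4, and 0 below.

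In the adhesion complex itself, Cdh1 stood lower in 2 of the 3 HP pools. Its level was 6.53, 6.75 and 6.64 in the HP pools of replicates 1, 2 and 3, against 7.20, 7.34 and 6.63 in the control pools. HP embryos were thus below control on arrays 1 and 2 and level with it on array 3, where the control pool lay within the HP range. The ratio was −0.42 ± 0.18 (limma adjusted p = 0.312, n = 3 arrays), and −1.10 with the log ratio of the scanner software (limma adjusted p = 0.301). As a mean over 10 spots, the signal of this probe was 1.58, 1.98 and 1.72 times local background in HP pools. It was 5.08, 7.09 and 3.22 times in control pools. For 153 negative control spots the median was 1.22 to 1.23 times in the HP channel and 1.88 to 1.98 times in the control channel.

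Ctnnb1, which encodes beta-catenin, the partner of E-cadherin and an effector of Wnt signals, went both ways. It had 7.68, 8.12 and 7.95 in HP pools, against 8.38, 7.06 and 7.26 in control pools. Replicate 1 was lower in HP and replicates 2 and 3 were higher, for a ratio of 0.35 ± 0.39 (limma adjusted p = 0.634, n = 3 arrays), which is within the spread of the arrays. This value comes from 1 of 3 probes. The probe detected on 1 HP and 1 control array was not tested, and gave 0.53, 0.04 and −0.37 in replicates 1, 2 and 3. Ctnna1, which encodes alpha-catenin, the link from beta-catenin to actin, had 9.41, 8.79 and 8.90 in HP pools, against 9.04, 9.38 and 8.70 in control pools. The pools overlapped in full, and the ratio was −0.00 with a 95% interval of −0.64 to 0.63.

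The catenin-related genes held the lowest p of the set. Ctnnal1, or alpha-catulin, a relative of alpha-catenin that acts as a signalling scaffold, had 10.47, 9.97 and 10.18 in HP pools, against 9.77, 9.65 and 9.96 in control pools. Every HP pool lay above every control pool, with the HP pool of replicate 2 and the control pool of replicate 3 nearly level. The ratio was 0.41 ± 0.14 or 1.33-fold (unadjusted p = 0.0450, limma adjusted p = 0.264, n = 3 arrays), and −0.50 with median centring, where all genes had a median of −0.39. This value comes from 1 of 4 probes, the one shown above as detected, and the other 3 were not detected in any pool. Ctnnbip1, an inhibitor of the binding of beta-catenin to TCF factors, had 7.76, 7.35 and 7.38 in HP pools, against 6.02, 6.72 and 7.55 in control pools. Its HP pools were close together while the control pools were spread over more than 1 log2 unit, and the ratio of 0.73 ± 0.40 (limma adjusted p = 0.380, n = 3 arrays) was 1.73, 0.64 and −0.17 on the single arrays.

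**Figure D3:**
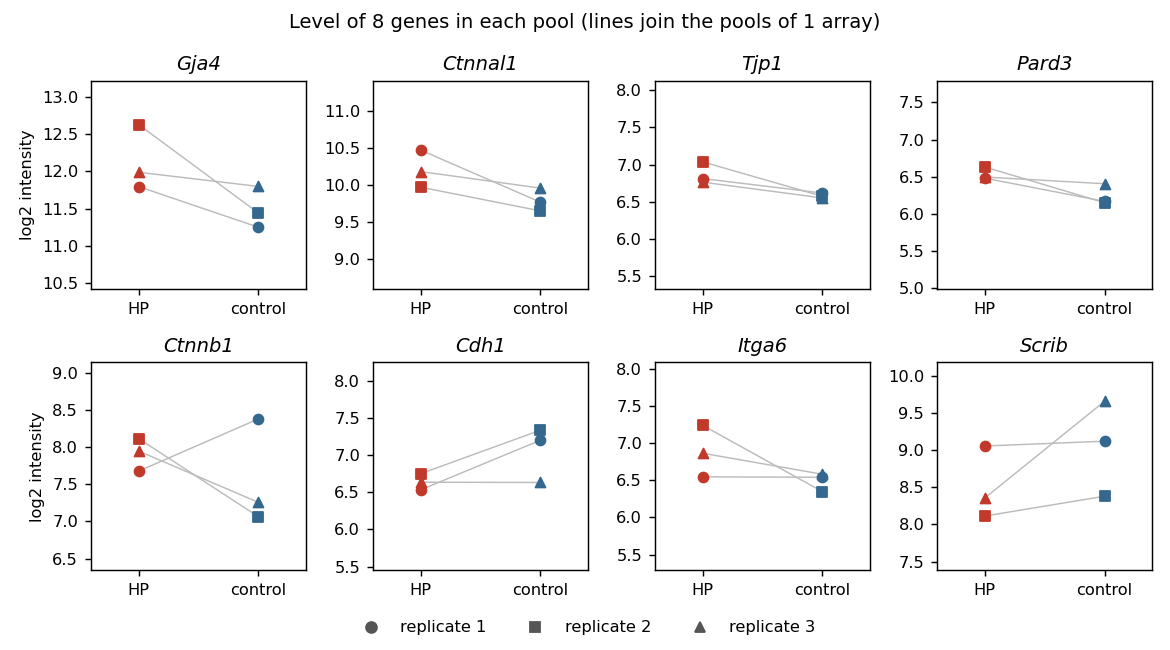
Normalized log2 intensity of 8 genes in each HP pool (red, left) and control pool (blue, right), with a line joining the pools hybridised to the same array. Every panel spans the same number of log2 units. On all 3 arrays HP lies above control for Gja4, Ctnnal1, Tjp1 and Pard3, and the lines of Ctnnb1 cross.

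Of the other cadherins, Cdh24 was at 0.17 ± 0.11, Cdh4 (R-cadherin) at 0.13 ± 0.12 and Cdh11 (OB-cadherin) at −0.06 ± 0.10. Cdh24 had 6.68, 6.74 and 6.71 in HP pools, against 6.51, 6.48 and 6.63 in control pools. Its pools did not overlap, yet all 6 levels were dim and the limma adjusted p was 0.420.

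Tjp1 encodes a scaffold that binds claudins and occludin to actin. It had 6.81, 7.04 and 6.76 in HP pools, against 6.62, 6.57 and 6.55 in control pools. The control pools were within a narrow band and every HP pool lay above it, with a ratio of 0.29 ± 0.12 or 1.22-fold (limma adjusted p = 0.301, n = 3 arrays). With the scanner software's log ratio Tjp1 was at 1.01 (limma adjusted p = 0.252). With median centring it was at 0.03, which lay above the median of all genes. These values come from 1 of 2 probes, and the other was not detected in any pool. The signal of the detected probe was 2.13 to 2.78 times local background in HP pools and 2.99 to 3.65 times in control pools.

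The membrane proteins of tight junctions were near background or alike. F11r had 8.88, 8.47 and 8.70 in HP pools, against 9.01, 8.09 and 8.95 in control pools. Its pools overlapped, with a ratio of −0.00 and a 95% interval of −0.47 to 0.47. Ocln, which encodes occludin, had 6.30, 6.33 and 6.31 in HP pools, none well above background, against 6.51, 6.63 and 6.31 in control pools, 2 of them well above background. Its ratio was −0.17 ± 0.12 (limma adjusted p = 0.461, n = 3 arrays). The claudins, which form the paracellular seal, were at 0.24 ± 0.14 for Cldn12, 0.17 ± 0.12 for Cldn22, 0.13 ± 0.11 for Cldn3 and 0.08 ± 0.10 for Cldn10, and each was above 0 on all 3 arrays. Cldn12 and Cldn10 met the rule for testing in the HP channel alone, where they were higher, so that rule favours their sign. All 4 claudins were dim, with no level above 6.87. With median centring Cldn22, Cldn3 and Cldn10 were at −0.05, −0.12 and −0.02, which lay above the median of all genes.

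The desmosomal cadherin Dsc2 had 6.16, 6.34 and 6.47 in HP pools, none well above background, against 6.06, 6.52 and 6.48 in control pools. The values overlapped, and the ratio was −0.03 ± 0.12 (limma adjusted p = 0.903, n = 3 arrays). It was −2.09 with the scanner software's log ratio (limma adjusted p = 0.274) and −0.43 without background subtraction (limma adjusted p = 0.284). With an offset of 0 it was 0.08. The size and sign of this ratio thus varied with the processing, and the cause was not tested.

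Gja4 had the next lowest p and was far above background in every pool, at 62.8 to 122 times its local background in HP pools and 129 to 215 times in control pools. Connexin 37 forms the channels between the oocyte and its granulosa cells, and the transcript is made in the oocyte. It had 11.80, 12.63 and 11.99 in HP pools, against 11.25, 11.44 and 11.80 in control pools. All 3 arrays were above 0, most so replicate 2, and the lowest HP pool coincided with the highest control pool. The ratio was 0.64 ± 0.23 or 1.56-fold (unadjusted p = 0.0482, limma adjusted p = 0.269, n = 3 arrays), and −0.45 with median centring, just below the median of all genes. Without replicate 2 no gene of the set had an unadjusted p under 0.05, Gja4 included. Of 13 oocyte and early embryo markers 7 were tested, all 7 were above 0 (48.3% of all genes were) and 4 were above 0 on every array (23.2% of all genes). Oog1 (1.48 ± 0.20), Oosp1 (1.29 ± 0.24) and Gdf9 (0.97 ± 0.29) were the 3 with an unadjusted p under 0.05, and none passed adjustment in limma. The 7 markers had a mean level of 9.38 to 9.75 in HP pools and 8.86 to 9.06 in control pools. Of the other markers Pou5f1, Nlrp5, Zar1, Zp2, Padi6 and Npm2 were not tested. Their part in the value of Gja4 was not tested. Gja1, the connexin of cumulus cells and later of the embryo, had 6.79, 6.85 and 6.66 in HP pools, against 6.80, 6.84 and 6.55 in control pools. These values overlapped, with a ratio of 0.04 and a 95% interval of −0.25 to 0.33. None of 12 cumulus and granulosa markers was tested.

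Polarity genes lay on both sides of 0. Pard3, a scaffold of the apical Par complex, had 6.48, 6.63 and 6.50 in HP pools, against 6.17, 6.15 and 6.41 in control pools, and no control pool was well above background. The ratio was 0.29 ± 0.13 or 1.23-fold (limma adjusted p = 0.316, n = 3 arrays), with a 95% interval of −0.06 to 0.65 that includes no difference. The signal came from 1 of 6 Pard3 probes. The brightest of the 6 over both channels was above background on 1 control array. It gave −0.73, −0.06 and 0.01 in replicates 1, 2 and 3, for a mean of −0.26 that rests on replicate 1. Llgl1, a basolateral regulator that opposes the Par complex, had 6.34, 6.31 and 6.44 in HP pools, none well above background, against 6.58, 6.81 and 6.59 in control pools. The ratio was −0.30 ± 0.12 (limma adjusted p = 0.305, n = 3 arrays), with a 95% interval of −0.64 to 0.05. With the scanner software's log ratio Pard3 was at 2.40 and Llgl1 at −2.39 (limma adjusted p = 0.212 and 0.140). Where a group was not well above background, the ratio of these dim probes is only a limit on the difference in RNA.

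Scrib, the partner of Llgl1 at the basolateral membrane, had 9.06, 8.11 and 8.36 in HP pools, against 9.12, 8.38 and 9.66 in control pools. All 3 arrays were below 0 and the pools overlapped. Replicate 3 alone was at −1.30, and the ratio was −0.54 ± 0.29 (limma adjusted p = 0.371, n = 3 arrays). Prkcz had 8.64, 7.85 and 7.87 in HP pools, against 8.43, 8.36 and 8.05 in control pools, and its ratio of −0.16 ± 0.18 was within the spread of the arrays. Its other tested probes gave −0.15 and 0.20, so probes of this gene differed in sign. The probe at −0.15 met the rule for testing in the control channel alone, and the probe at 0.20 in the HP channel alone. That rule thus favours a difference in sign between them. Crb3 had 8.55, 8.85 and 8.71 in HP pools, against 8.73, 8.98 and 8.35 in control pools, for a ratio of 0.02 with a 95% interval of −0.42 to 0.45. Ezr, which ties membrane proteins to the actin cortex and marks the apical pole of blastomeres after compaction, had 7.35, 6.38 and 6.39 in HP pools, against 6.53, 6.27 and 6.40 in control pools. The HP pool of replicate 1 was high and the other pools were alike (0.30 ± 0.21, limma adjusted p = 0.452, n = 3 arrays).

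Among integrins, Itga6, the alpha chain of laminin receptors, had 6.55, 7.24 and 6.87 in HP pools, against 6.54, 6.35 and 6.58 in control pools. Replicate 2 was well above 0, replicate 1 was level, and the ratio was 0.39 ± 0.21 (limma adjusted p = 0.374, n = 3 arrays). This value comes from 1 of 3 Itga6 probes. Another, above background on 1 control array and not tested, gave −0.06, −0.65 and 0.02 in replicates 1, 2 and 3. Itgb5, the beta chain of a vitronectin receptor, had 9.79, 9.82 and 9.70 in HP pools, against 9.73, 10.30 and 10.09 in control pools. Its HP pools were tightly grouped, and replicates 2 and 3 were below control while replicate 1 was level (−0.27 ± 0.16, limma adjusted p = 0.394, n = 3 arrays). Itgb4, the partner of the alpha chain of Itga6 in epithelial hemidesmosomes, was at 0.06 ± 0.13, and its overlapping second probe gave 0.07. Itgb7, Itgb2 and Itgae, which are best known from leukocytes, were at −0.15 ± 0.12, 0.12 ± 0.105 and 0.08 ± 0.105. Eif6 was at −0.09 ± 0.24, with −0.30 and −0.00 from its other tested probes.

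Where a gene had both probes that met the rule for testing (called detected here) and probes that did not, position along the transcript could be compared. This was possible for 12 of the genes, with distances taken along the mm7 genome, introns included. The detected probe was the most 3′ one for 10 of them, or 83.3%, and the exceptions were Cdh11 and Pard3. Over all 3262 genes with probes of both kinds the share was 66.8%. The nearest undetected Ctnnb1 probe lay 0.496 kb upstream of the detected one, and those of Ctnnal1 2.12 to 18.6 kb upstream. Probes for the set that were detected had a median GC content of 45%, against 43.3% for those that were not, and over all probes the medians were 41.7% and 40%.

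**Figure D4:**
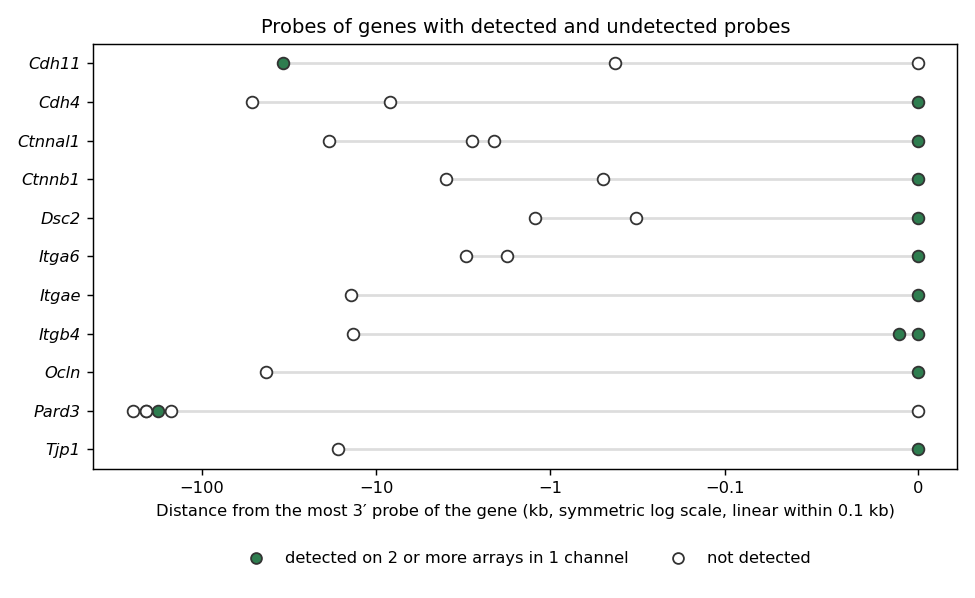
Probes of 11 of the 12 genes that had both detected (filled) and undetected (open) probes, by genomic distance in kb upstream of the most 3′ probe of the gene, on a symmetric log axis. The most 3′ probe is open for Cdh11 and Pard3 and filled for the other genes shown.

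Beyond the set, 80 further genes of adhesion, junctions and polarity were on the array. Of these 36 were tested, 15 with a ratio above 0 and 21 below (48.3% and 51.7% of all genes), with a median of −0.05, and 0 passed adjustment in limma. At an unadjusted p under 0.05 there was 1 above 0 and 7 below, against the 7.25% and 11.2% of all genes given above. The 1 above was the tetraspanin Cd81 (0.74 ± 0.23). The 7 below were the actin cross-linker Actn4 (−0.98 ± 0.23), the tetraspanin Cd9 (−0.80 ± 0.25), the polarity GTPase Cdc42 (−0.61 ± 0.15), the Hippo pathway genes Amot (−0.55 ± 0.19) and Lats1 (−0.40 ± 0.11), the adhesion receptor Nectin3 (−0.55 ± 0.12) and the actomyosin kinase Rock1 (−0.37 ± 0.11). Cd81 was called detected in the HP pools alone, and Amot and Lats1 in the control pools alone. The group where they were higher may have brought them into the test. Afdn, which encodes afadin, the link from nectins to actin, was at −0.69 ± 0.26. For Nectin3 the 3 arrays gave −0.62, −0.67 and −0.36, the smallest p of these 36 genes (unadjusted p = 0.0106).

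Few markers of other cells met the rule for testing. Besides the cumulus markers, none of 8 trophectoderm and blastocyst markers was tested. Of 7 sperm markers Prm1 was tested, at −0.04, and was called detected in the control pools alone. Of 7 fibroblast and blood markers Hba-a1 was tested, at 0.10, and was called detected in the HP pools alone. A marker that was not tested may still be present, since only 7 of 13 oocyte and early embryo markers were tested. The scanner called 17.5% to 19.9% of non-control spots well above background for HP and 18.5% to 23.2% for control. The number of arrays limits the precision.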

How the data were processed

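Per the labels' protocols, 240 pg of total RNA per pool was amplified and coupled to Cy5 (HP) or Cy3 (control). Agilent Feature Extraction 9.5.1.1 read the scans, per the file headers, on a design with mm7 coordinates. The deposited mean spot signals and local background signals are intensity values with no background subtracted. Their deposited log ratio, log10 of Cy5 over Cy3, uses processed signals, and the authors' series table repeats it (largest difference 5e-10, median 0 on each array).

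From the mean signals, limma 3.58.1 in R 4.3.3 applied normexp (offset 50) and loess within arrays, with control spots at weight 0. Outlier spots (172 to 325 per array) were left out and spots of a probe averaged. Levels of the single pools are after quantile normalization of mean intensities between arrays, which leaves ratios as they were. Symbols were updated through RefSeq tables (GRCm38.p6) for 22951 probes by accession, then 6659 by symbol and 3109 by synonym, while 8455 kept the name of the files. A gene was represented by its brightest tested probe. An intercept was fitted to log2 ratios over all 7254 genes with empirical Bayes moderation and Benjamini-Hochberg adjustment (threshold 0.05). Standard errors and 95% intervals are moderated, and steps were tested on simulated data.

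Every tested gene of the set is named except 1, which counts in the totals and is not reported here. Values of all pools are given for key components of each structure and for up to 6 genes per direction, ranked by p among those with 1 sign on every array. The genes and lists were chosen with earlier results of these data known. The p-values rest on the spread over the 3 pairs of pools, moderated with the spread of all tested genes. No other source of variation enters them. The arrays lay on 1 slide with 1 scan, and no spot was saturated.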

Additional observations from a re-analysis of the deposited data

How the results depend on the processing

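No gene of the set passed adjustment under any of 14 other settings, and over all genes 0 passed except with median centring (1047 genes). The set's count at an unadjusted p under 0.05, above and below 0, was 5 and 3 with the scanner log ratio (7.73% and 10.1% of all genes), 1 and 1 without background subtraction (7.87% and 12.3%), 1 and 2 with an offset of 0 (6.02% and 11.2%) and 0 and 10 with median centring (0.648% and 35.1%). It was 6 and 1 of 125 genes without the filter on dim probes (3.03% and 4.2%), 1 and 0 of 20 genes with the filter on both channels (9.21% and 13.8%), and 1 and 0 with replicates 2 and 3 averaged (5.16% and 6.77%). Both pools of a replicate share an array, so the ratio is already paired, and the count was 4 and 1 with separate channels and no replicate block (7.83% and 10.9%). It was 2 and 0, Ctnnal1 and Gja4, with scaling between arrays, the mean over probes or the GC trend removed. Leaving out each replicate gave 0 to 2 above and 0 to 2 below. Over all genes the split at that p was 526 above and 816 below, and 47 and 2546 with median centring. The set's median ratio of 0.068 became 0.39 with the scanner log ratio, 0.090 without background subtraction, 0.15 with an offset of 0, −0.24 with median centring, 0.10 with scaling, 0.0049 without the filter and 0.047 with both channels required. It ran from 0.072 to 0.084 without single replicates. In each of these settings it lay above the median of all genes. The counts above and below 0 on every array, 12 and 4, became 3 and 19 with median centring and 28 and 15 without the filter. The lower count was 1 with both channels required and 5 to 8 without single replicates. Detected genes numbered 14 in HP and 15 in control when every probe had to be above background, and 53 and 58 by the scanner's weaker test of significance (42.4% and 46.4%, against 37% and 38.2% of all genes).

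Of the 32 genes 15 kept the sign of their ratio wherever it was computed. Median centring moved the median of all genes to −0.39, and under that common shift 11 changed sign: Cdh24 (−0.017), Cldn10 (−0.021), Cldn22 (−0.051), Cldn3 (−0.12), Crb3 (−0.77), Ctnnal1 (−0.50), Ctnnb1 (−0.27), Gja1 (−0.23), Gja4 (−0.45), Itgb2 (−0.082) and Itgb4 (−0.68). Of these Crb3, Ctnnal1, Gja4 and Itgb4 lay below the shifted median and the others above it. Ctnna1 changed with the scanner log ratio (0.096), no background subtraction (0.0096), an offset of 0 (0.029), scaling (0.059) and averaged replicates (0.088). F11r changed with the scanner log ratio (0.11), no background subtraction (0.00037) and an offset of 0 (0.019). Dsc2 changed with an offset of 0 (0.083) and averaged replicates (0.0033), Eif6 with scaling (0.097), Crb3 with averaged replicates (−0.033) and Pard3 without the filter (−0.26), where another probe stands for the gene. Without single replicates 8 genes crossed 0: Crb3 (−0.16 to 0.12), Ctnna1 (−0.19 to 0.29), Ctnnb1 (−0.0057 to 0.87), Dsc2 (−0.094 to 0.045), Eif6 (−0.39 to 0.10), F11r (−0.19 to 0.12), Itgb4 (−0.042 to 0.16) and Prkcz (−0.35 to 0.018). For the settings that change neither probes nor samples, the cause was not tested. No dye swap was made, so dye and pressure cannot be told apart, and dim signal limits the ratios of 14 genes.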

Other observations

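The RefSeq promoter windows of the genes, 250 bases before to 50 after the start, were scanned for the dinucleotide CG, which is the same on both strands. A window was found for 20 of the 32 tested genes of the set and for 68 of the 93 others. The median count of CG was 20 in tested genes and 11 in the others, and 75% and 54.4% of the windows held 10 or more. Over all genes with a window the medians were 22 for tested and 11 for other genes, with 84.7% and 52.2% at 10 or more. The set thus showed a split like that of all genes, and these counts are a description of the letters in those windows.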
